A study of Mus musculus with 12 samples.

Results

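The genes described here are 6 nuclear effectors and targets of Notch signalling: Hes1, Hey1, Hey2, Heyl, Nrarp and Rbpj. They were chosen by symbol, and all 6 were among the 54227 gene symbols of the deposited table of normalised counts. The libraries came from livers of C57Bl/6 mice that carried a Sox9EGFP transgene, whose green fluorescence reports on Sox9, a transcription factor of bile duct cells. Mice were fasted for 16 h, the livers were digested, and cells were sorted by fluorescence into 4 gates, called neg, sub, low and high in rising order. Every gate, neg included, came from transgenic animals. Each gate had 3 libraries of 12000 sorted cells. The labels do not say whether the 3 libraries of a gate came from separate mice, so p-values measure the spread between libraries, which may be technical. Same-numbered libraries of the 4 gates share a code in the labels, whose meaning is not stated.

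Notch signalling passes between touching cells. A Jagged or Delta-like ligand on a cell binds a Notch receptor on its neighbour, the receptor is cut by ADAM proteases and γ-secretase, and its intracellular domain moves to the nucleus. There it binds RBPJ, the DNA-binding protein that carries the signal to target genes, and recruits Mastermind coactivators; without Notch, RBPJ can hold the same genes repressed. HES1, HEY1, HEY2 and HEYL are basic helix-loop-helix repressors encoded by such targets, and NRARP is a target that dampens the signal in turn. In the liver the pathway is best known for bile duct formation, which needs Jag1 and Notch2, and Sox9 has been described as a Notch-responsive gene.

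The members fell into an always detected and a sparsely detected set. Hes1 and Rbpj were above 0 in all 12 libraries, as were 3200 of the 16128 tested genes (19.8%). A gene was tested where its normalised count, the authors' reads divided by 1 factor per library, averaged 10 or more. Nrarp was above 0 in 7 libraries, Heyl in 5 and Hey1 in 2. Hey2 was at 0 in all 12 and was not tested, so 5 of the 6 members entered the fit.

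**Figure D1:**
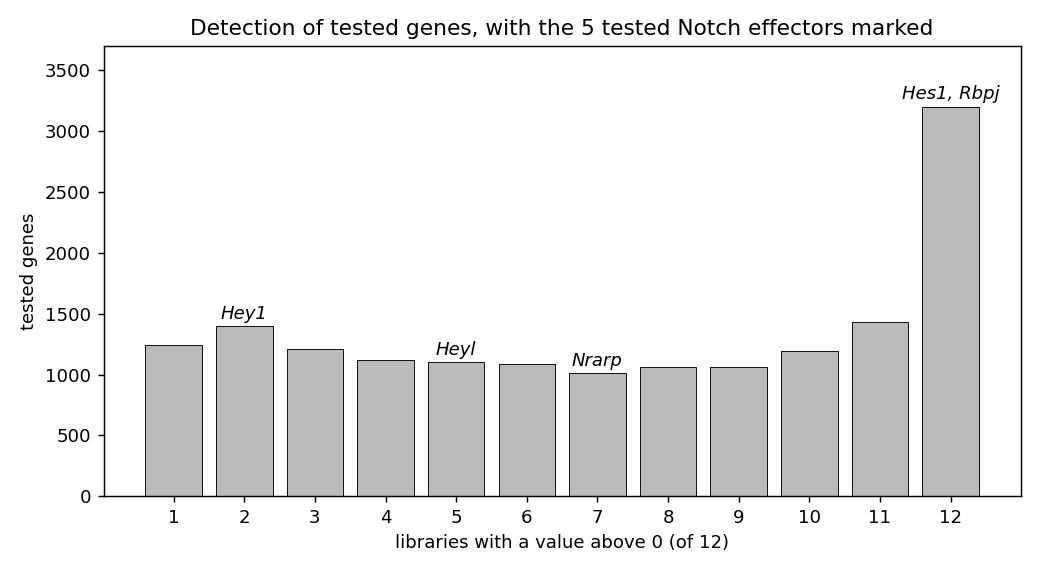
Number of tested genes (y axis) by the number of the 12 libraries in which they were above 0 (x axis), with the 5 tested members written over their bars. Hes1 and Rbpj stand in the bar of 3200 genes found in all 12 libraries, Nrarp at 7, Heyl at 5 and Hey1 at 2.

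Promoter sequences are shown for Rbpj, Nrarp and Hey2 because these 3 of the 6 members matched an entry in the RefSeq promoters used here (GRCm38.p6); their detection ranged from every library to none. The windows run from 250 bases before a transcription start to 10 bases after it. Capitals mark the letters TGGGAA, the core of the RBPJ motif, or its reverse complement TTCCCA. The Rbpj window is chr5:53590096-53590355 on the plus strand, the Nrarp window chr2:25180508-25180767 on the plus strand, and the Hey2 window chr10:30842774-30843033, read on the minus strand. The Rbpj start used here lies inside the gene, whose annotated span (GENCODE M21) begins at 53466152. The sequence around that beginning was not searched.
Rbpj: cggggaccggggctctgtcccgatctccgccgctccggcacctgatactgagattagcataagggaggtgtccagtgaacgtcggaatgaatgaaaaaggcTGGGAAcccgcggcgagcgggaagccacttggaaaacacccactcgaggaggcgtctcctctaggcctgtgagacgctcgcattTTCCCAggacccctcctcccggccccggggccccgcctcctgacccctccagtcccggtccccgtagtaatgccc
Nrarp: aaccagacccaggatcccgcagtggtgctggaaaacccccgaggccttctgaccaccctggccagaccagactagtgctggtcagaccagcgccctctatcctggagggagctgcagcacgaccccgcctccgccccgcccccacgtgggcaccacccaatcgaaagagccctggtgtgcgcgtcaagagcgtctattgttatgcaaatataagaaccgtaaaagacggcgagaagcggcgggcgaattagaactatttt
Hey2: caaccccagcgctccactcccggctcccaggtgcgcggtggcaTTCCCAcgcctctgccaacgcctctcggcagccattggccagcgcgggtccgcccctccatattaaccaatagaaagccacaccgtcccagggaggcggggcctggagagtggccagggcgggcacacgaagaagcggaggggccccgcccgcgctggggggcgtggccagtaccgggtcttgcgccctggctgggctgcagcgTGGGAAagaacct

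Each 300-base window (250 bases before the start to 50 after) was searched on both strands for TGGGAA and for CACNAG, the N box bound by HES repressors. TGGGAA or its complement occurred 2 times in the Rbpj window and 2 times in the Hey2 window, where the second match begins 3 bases before the start. It was not found in the Nrarp window, which held 2 matches to CACNAG. A second RefSeq start of Rbpj, with a window overlapping the first (chr5:53590236-53590535), held 1 TGGGAA match. It is the TTCCCA site already counted in the first window. Of 32851 RefSeq promoter windows of the same length, 25.6% held TGGGAA and 42.5% held CACNAG. These matches describe letters in a window and not bound sites.

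Hes1 was the most abundant member and had its highest gate mean in high. The protein-coding gene (ENSMUSG00000022528.8) spans 30064384 to 30067796 of chromosome 16, plus strand (GRCm38, GENCODE M21). Its normalised counts in neg libraries 1, 2 and 3 were 1068, 1471 and 1227. In sub they were 2704, 412.2 and 1912, and in low 1132, 3372 and 6288. The 3 high libraries held 3681, 4203 and 4601.

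Hes1 was therefore uniform in the outer gates and scattered in the middle ones. The mean was 4162 ± 461.6 in high and 3597 ± 2586 in low, against 1676 ± 1164 in sub and 1255 ± 203.1 in neg (SD over 3 libraries each). The coefficient of variation was 16.2% in neg and 11.1% in high, against 69.4% in sub and 71.9% in low. The sub value leaned on sub 2, at 412.2 where sub 1 and sub 3 were at 2704 and 1912. Every high library lay above every neg and every sub library, while all other pairs of gates overlapped. The order of the means was neg, sub, low, high, and no neighbours in that order differed beyond their spread.

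In limma fitted to all 12 libraries, Hes1 was 1.73 ± 0.69 higher on the log2 scale in high than in neg (SE; 3.33-fold, 95% interval 1.21 to 9.12). The unadjusted p was 0.0219 and the Benjamini-Hochberg adjusted p 0.194, so the difference did not pass. Against sub, high was 1.69 ± 0.69 higher (3.22-fold, 1.17 to 8.82); p was 0.0254 before and 0.387 after adjustment. That difference was 0.87 without sub 2 (adjusted p 0.693) and 2.22 without sub 1. Among all 16128 tested genes, 10.2% had every high library above every neg library and 7.20% had every high library above every sub library. An exact two-sided permutation test gave 0.1 for each of these comparisons, which is the smallest p that 3 against 3 allows.

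The other Hes1 comparisons had wide intervals. Low exceeded neg by 1.21 ± 0.69 on the log2 scale (adjusted p 0.42 in limma) and sub by 1.16 ± 0.69 (adjusted p 0.625). Sub and neg differed by 0.05 ± 0.69 (adjusted p 1), a fold of 1.03 with a 95% interval from 0.377 to 2.83. High and low differed by 0.52 ± 0.69 (adjusted p 1, interval -0.93 to 1.98). The sub and low values leaned on single libraries: without sub 2 the sub-to-neg difference was 0.87, without sub 1 it was -0.49, and without low 1 the high-to-low difference was -0.15. The moderated F test across the 4 gates gave an adjusted p of 0.341 for Hes1, in a fit where 682 genes (4.23%) passed.

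**Figure D2:**
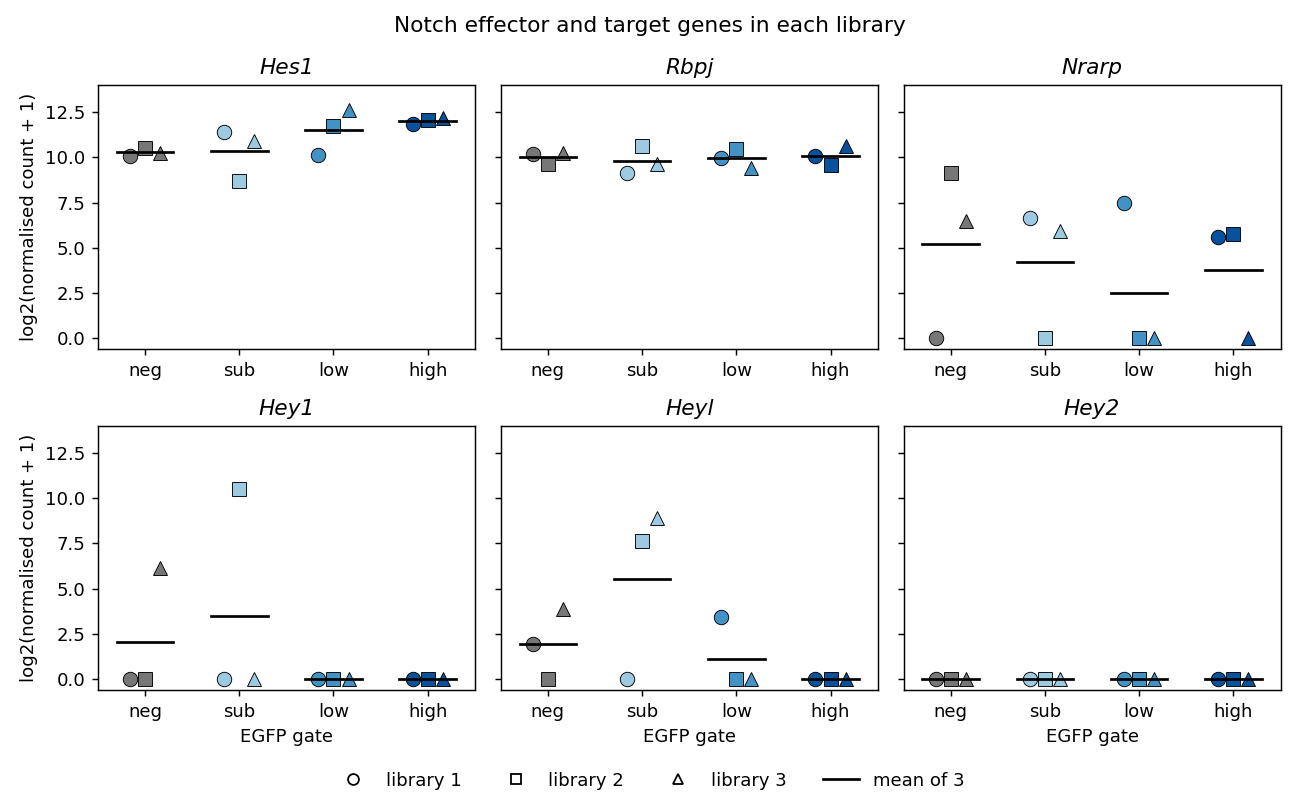
Values of the 6 members in each library as log2(normalised count + 1) (y axis) by EGFP gate (x axis); shapes mark the library number and bars the mean of 3. Hes1 is tight in neg and high and scattered in sub and low, Rbpj overlaps across all gates, Hey1 and Heyl are highest in single sub libraries, and Hey2 is at 0 throughout.

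Rbpj, the DNA-binding hub of the pathway, was measured in every library and had nearly equal means in the 4 gates. The protein-coding gene (ENSMUSG00000039191.12) spans 53466152 to 53657362 of chromosome 5, plus strand (GRCm38, GENCODE M21). Its normalised counts in libraries 1, 2 and 3 were 1159, 805.9 and 1226 in neg and 553.5, 1594 and 781.0 in sub. They were 988.5, 1414 and 675.6 in low and 1070.4, 747.9 and 1584 in high. All gates overlapped each other.

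The Rbpj mean was highest in high, at 1134 ± 421.5, followed by neg at 1064 ± 225.6, low at 1026 ± 370.5 and sub at 976.1 ± 546.9 (SD over 3 libraries each). The differences in limma ranged from -0.24 (sub against neg) to 0.29 (high against sub) on the log2 scale, each with an SE of 0.77. This SE is moderated: limma draws the variance of each gene toward the trend of all tested genes. It therefore does not measure the spread of Rbpj alone, and it exceeded the 0.69 of Hes1, whose own spread was wider. Adjusted p values over the 6 comparisons ranged from 0.977 to 1, and the F test gave 0.993. These intervals do not show that the gates were equal: for high against neg the fold was 1.03 with a 95% interval from 0.337 to 3.18. The pooled SD within gates was 0.57 on the log2 scale for Rbpj and 0.97 for Hes1, against a median of 0.996 for the genes above 0 in all 12 libraries and 2.84 for all tested genes.

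Reads of Rbpj can be shared with a near-identical copy. Rbpj-ps3, a pseudogene, matches an Rbpj transcript at 99.7% over 1441 bases and was listed at 231.8 in neg 3 and at 0 in the other 11 libraries. The sum of both was 1141 ± 326.1 in neg (n = 3) and equal to Rbpj alone in the other gates. Rbpj-ps1, which is 87.9% identical over its aligned part, reached at most 2.29.

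**Figure D3:**
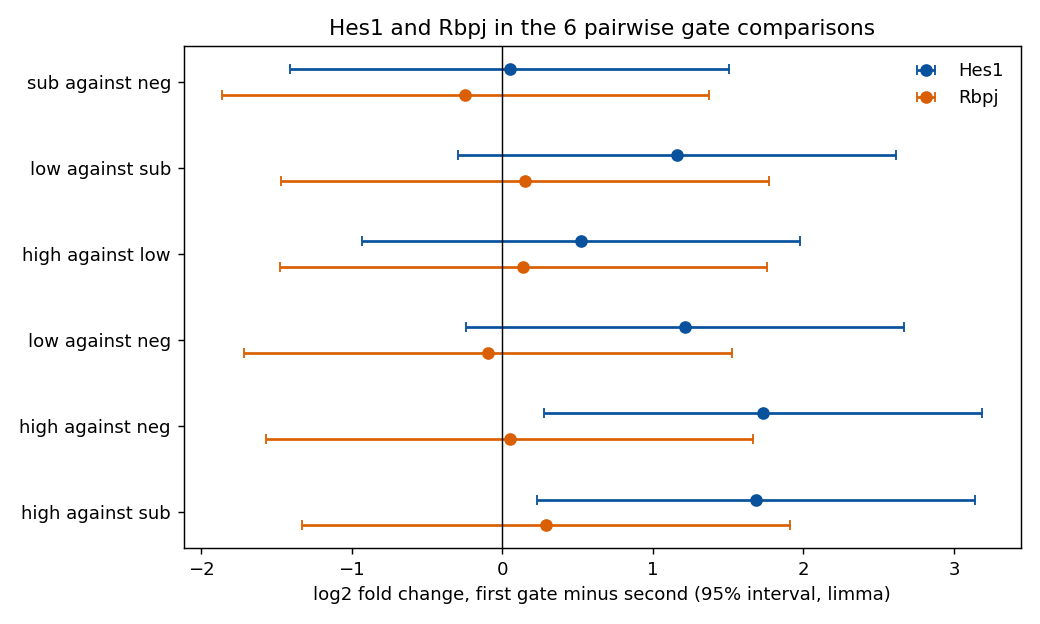
Log2 fold change (x axis, first gate minus second) of Hes1 and Rbpj in the 6 pairwise comparisons (y axis), with 95% intervals from limma. The Hes1 intervals for high against neg and high against sub lie above 0 before adjustment for the 16128 genes tested, and all 6 Rbpj intervals hold 0.

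Per kilobase of the median protein-coding transcript in GENCODE M21, Hes1 stood above Rbpj in 11 of 12 libraries. The level was 2835 ± 314.4 per kb for Hes1 and 212.1 ± 78.8 for Rbpj in high, and 855.1 ± 138.3 and 199.0 ± 42.2 in neg (normalised counts per kb, SD, n = 3 each). The ratio of Hes1 to Rbpj per kb was 3.36, 6.65 and 3.64 in neg and 12.5, 20.5 and 10.6 in high. In sub it was 17.8, 0.942 and 8.92, and in low 4.17, 8.69 and 33.9. Within sub the libraries ranked in opposite orders for the 2 genes: sub 2 held the lowest Hes1 and the highest Rbpj value of all 12 libraries. The orders were not opposite in neg, low or high, and high 3 held the highest value of its gate for both genes.

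The Hey genes encode repressors related to Hes1 that are known for roles in blood vessels and the heart. Hey1 (ENSMUSG00000040289.8, chromosome 3, 8663359 to 8667256, minus strand) was listed at 1440.3 in sub 2, at 69.5 in neg 3 and at 0 in the other 10 libraries. Thus 95.4% of its summed value came from 1 library. No read was found in low (of 42050119 reads over 3 libraries, which allows up to 0.0713 RPM) or in high (of 37262633, up to 0.0805 RPM); these limits cover counting error only. Low and high against sub each gave -3.50 ± 2.52 on the log2 scale in limma (adjusted p 0.692 and 0.685), and no comparison passed.

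Heyl (ENSMUSG00000032744.4, chromosome 4, 123233556 to 123249875, plus strand) was also highest in sub. Its normalised counts in libraries 1, 2 and 3 were 0, 200.4 and 469.8 in sub, 2.76, 0 and 13.5 in neg, and 9.65, 0 and 0 in low. All 3 high libraries were at 0. The sub mean of 223.4 ± 235.7 (SD, n = 3) was at least 83.0-fold higher than high, taking 3 reads per library as the level in high, but sub 1 was at 0 as well and the gates touch there. Without sub 3 the bound was 37.2-fold. The log2 difference of high against sub was -5.51 ± 2.43 in limma (p 0.035 before and 0.433 after adjustment). Leaving out sub 1 made it -8.27 and leaving out sub 3 made it -3.83, and neither call passed.

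Hey2 (ENSMUSG00000019789.9, chromosome 10, 30832359 to 30842801, minus strand) had 0 of 150626399 reads over all 12 libraries, which allows up to 0.0199 RPM. It was not detectable at this depth in any gate.

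Nrarp (ENSMUSG00000078202.3, chromosome 2, 25180758 to 25183339, plus strand), the feedback inhibitor, varied more within gates than between them. Its normalised counts in libraries 1, 2 and 3 were 0, 550.3 and 89.8 in neg and 99.5, 0 and 58.9 in sub. They were 175.9, 0 and 0 in low and 46.7, 52.6 and 0 in high. Each gate held at least 1 library at 0, so all gates overlapped.

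The largest Nrarp difference in limma was low against neg, at -2.72 ± 3.08 on the log2 scale (adjusted p 0.701), and it ranged from -5.32 without neg 1 to -0.76 without neg 2. Nrarp lies opposite the antisense gene Gm38287, which was listed at 554.0 in neg 2 and 186.4 in neg 3, the libraries with Nrarp at 550.3 and 89.8, and at 0 in the other 10. The use of strand in counting is not given in the sources used here, so reads of the pair cannot be told apart, and the neg mean of Nrarp is uncertain for that reason.

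No member passed an adjusted p of 0.05 in any of the 6 comparisons in limma (0 of 5 tested each). Over all tested genes the share that passed was 1.19% for sub against neg, 0.744% for low against sub and 0.00% for high against low. It was 4.69% for low against neg, 4.69% for high against neg and 0.986% for high against sub. At an unadjusted p under 0.05, in the order just given, 9.54%, 10.2%, 4.24%, 16.0%, 16.4% and 10.2% of tested genes passed, and 3 member results did: Hes1 in high against neg, and Hes1 and Heyl in high against sub. The count tests edgeR and DESeq2 on recovered reads also called 0 members in each comparison. Of all 16128 tested genes, DESeq2 called from 646 (high against low) to 2352 (low against neg). For edgeR such a count is given here only for high against low, in a later section. The 1 setting that gave a call was limma fitted to the high and neg libraries alone, with an adjusted p of 0.034 for Hes1. That fit called 341 of all tested genes.

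The gates differed in the summed markers of several cell types. Sox9 was listed at 0.691, 0 and 0 in neg and from 3707 to 17140 in the other libraries. Biliary markers (10 genes) summed to between 21.2 and 412.5 in neg, where 6 of 10, Epcam and Spp1 among them, were at 0. The same sum was 19770 to 36031 across sub libraries, 66815 to 91812 across low and 62648 to 68507 across high. Sox9 is a gene of this list; without it the sum was 21.2 to 411.8 across neg libraries and 50855 to 55010 across high, with sub (16063 to 29378) and low (57977 to 74671) apart from both. Hepatocyte markers (10 genes) summed to between 395.0 and 936.2 in neg, where Hnf4a was at 0, 5146 and 8039 in sub, 14730 and 22230 in low, and 18578 and 22530 in high. Alb, at 11927 ± 1576 in high, and Ahsg, at 5268 ± 349.6, made up most of that sum (SD, n = 3 each). Apob, Ttr, Hnf4a and Tat also had higher means in high (1695, 1289, 791.8 and 163.5) than in neg (21.6, 0.322, 0 and 0). The remaining members of the list did not follow the sum. Apoa1 was at 410.8 ± 203.0 in neg and 53.5 ± 86.0 in high, and Cyp2e1, Cps1 and Serpina1a were at 0 in all high libraries. Endothelial markers (10 genes) summed to between 107658 and 151348 in neg, 35157 and 47501 in sub, 757.0 and 2014 in low and 690.3 and 914.6 in high. Macrophage markers (10 genes) summed to a mean of 951.7 in low and 926.6 in high, against 497.3 in sub and 212.8 in neg; 6, 5, 5 and 7 of the 10 were at 0 throughout these gates. Csf1r, the receptor for a macrophage growth factor, carried the higher sums: it was at 0 in neg, at most 302.9 in sub and between 518.6 and 1133 in low and high libraries. Without it the sum averaged 79.2 in low and 197.6 in high, against 385.7 in sub and 212.8 in neg. Of 10 lymphocyte markers 7 were at 0 in neg, Ptprc among them, and no library's sum exceeded 1142.

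Hes1 and the biliary and hepatocyte sums had their lowest means in neg. The macrophage sum did so only through Csf1r. The highest Hey1 and Heyl values lay in sub; in neg Hey1 was at most 69.5 and Heyl at most 13.5. Stellate and mesenchymal markers (10 genes, all detected in neg and sub) summed to between 19524 and 36929 in neg, 26871 and 38573 in sub, 818.2 and 2845 in low and 527.6 and 1935 in high, where Lrat and Hgf were at 0. Smooth muscle markers (8 genes) summed to 8414, 14326 and 16472 in sub 1, 2 and 3, whose Heyl values were 0, 200.4 and 469.8. They summed to 6349, 11186 and 15178 in neg 1, 2 and 3, where Heyl was at 2.76, 0 and 13.5. In low the smooth muscle sum was between 1430 and 2192. In high it was between 1299 and 2368, with 6 of 8 detected and Acta2 at 0. Mylk made up most of the sum in these gates, with means of 1195 in low and 1344 in high. The part of cell makeup in the Hes1, Hey1 and Heyl values was not tested. In such bulk samples a lower share of cells of a type and less RNA per cell cannot be told apart.

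**Figure D4:**
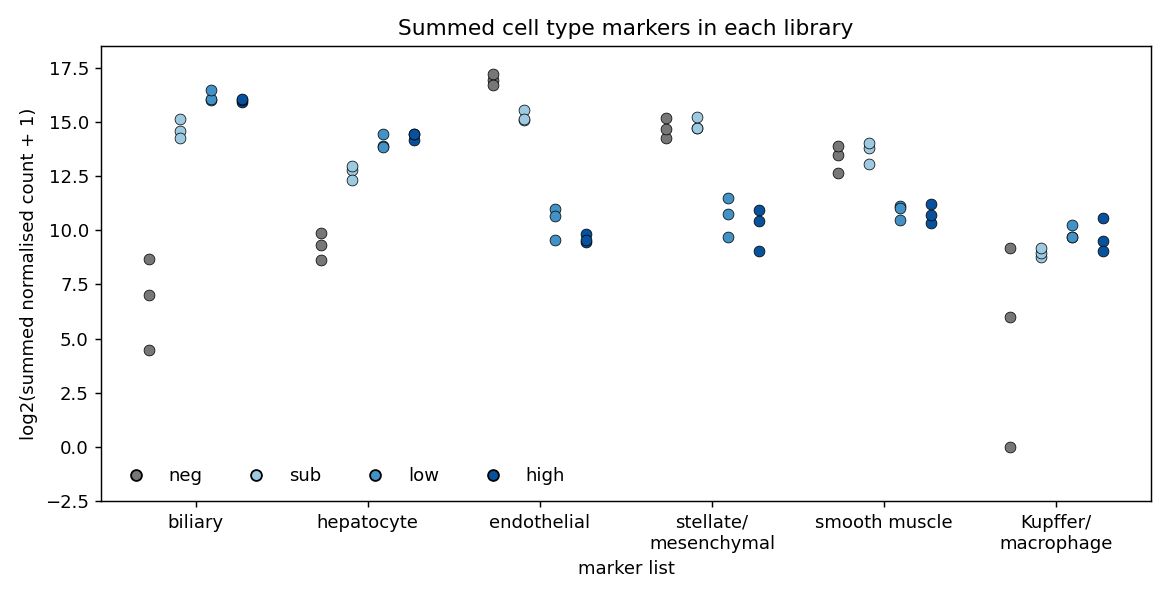
Summed normalised counts of 6 marker lists as log2(sum + 1) (y axis) in each library, coloured by EGFP gate. Biliary and hepatocyte sums are lowest in neg, endothelial sums are highest in neg, and stellate and smooth muscle sums are high in neg and sub and low in low and high.

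Upstream of the effectors, Notch2 alone among the 4 receptors passed in a pairwise comparison, and no test compared the receptors with each other. Notch2 (chromosome 3, 98013527 to 98150361, plus strand), the receptor needed for bile duct formation, was listed at 25.6, 0 and 505.1 in neg and rose in all 3 EGFP-positive gates. It reached 5199 ± 1679 in high, 4510 ± 278.2 in low and 2169 ± 797.2 in sub (SD over 3 libraries each). The log2 differences from neg in limma were 6.44 ± 1.40 in sub (adjusted p 0.0229), 7.57 ± 1.40 in low (adjusted p 0.00283) and 7.73 ± 1.40 in high (adjusted p 0.00206). Their size depended on single neg libraries: without neg 2, which is at 0, they were 4.15, 5.28 and 5.44, and without neg 3 they were 8.64, 9.77 and 9.93. The sub call was lost in 13 of 21 alternatives, among them each fit that left out neg 1 or a sub, low or high library (adjusted p 0.0566 to 0.121) and the 2-gate fit (0.652). The low and high calls were lost only in the fit of the 2 gates compared (adjusted p 0.249 and 0.193). Notch2 overlaps Gm42819 and Gm42820 on the same strand.

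Notch1 means were ordered the other way, without passing: 4795 ± 1847 for neg, 3551 ± 735.2 for sub, 2223 ± 1523 for low and 1424 ± 364.5 for high (SD over 3 libraries each); high against neg was -1.70 ± 0.55 on the log2 scale (adjusted p 0.0917 in limma). Notch3, a receptor of mural cells, was at 1629 ± 1196 in sub, 625.8 ± 624.0 in neg and at most 194.0 in low and high libraries, with adjusted p of 0.17 for low against sub and 0.262 for high against sub in limma. Notch4 averaged 817.8 ± 800.3 in neg, 495.5 ± 149.1 in sub and 168.5 ± 291.2 in low, and was at 0 in high. The F test in limma gave it an adjusted p of 0.301. Jag1, the ligand paired with Notch2 in duct formation, was at 2494 ± 1388 in sub against 713.3 ± 460.4 in neg (adjusted p 0.543). The neg and sub libraries of Jag1 did not overlap, as in 9.68% of tested genes in either direction.

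Over 76 other pathway genes in 7 lists, 69 were tested. The numbers that passed were 2 higher in sub than neg, 4 higher and 2 lower in low than neg, 3 higher and 2 lower in high than neg, and 1 lower in high than sub; none passed in low against sub or high against low. The shares to read this against are the 1.04% of tested genes higher in sub, 2.55% higher and 2.15% lower in low, and 2.44% higher and 2.25% lower in high, each against neg, and the 0.868% lower in high than sub. Of the 4 receptors, 1 (Notch2) was higher in each EGFP-positive gate than in neg; the median log2 difference of the receptors from neg was 2.18 for sub, -2.41 for low and -3.36 for high, against 0, 0 and 0.13 for all tested genes. Among 9 tested genes of the list of other reported targets, Sox9, the gene behind the sorting reporter, was the only one called. Sox9 is 1 of the genes counted above as higher in each EGFP-positive gate than in neg. The sort on its reporter favoured those calls in advance.

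Of the 4 tested ligands, Dll4, known from endothelial cells, fell. It was listed at 1906, 1715 and 3751 in neg, at 75.0 in low 1 and at 0 in the other low and all high libraries, at least 912.6-fold lower in high than in neg (adjusted p 0.00462). Low against neg gave -9.09 ± 2.20 on the log2 scale (adjusted p 0.0206; -11.17 without low 1 and -8.05 without low 2 or low 3), a call lost in 6 of 21 alternatives, among them each fit without a neg library or without low 2 or low 3 (adjusted p up to 0.128). High against sub was at least 557.7-fold lower (adjusted p 0.0254, lost in 7 of 21 alternatives, among them each fit without a sub or high library, up to 0.11). Of the 15 processing genes, only Lfng, a glycosyltransferase that modifies Notch receptors, was called. It was listed at 375.9, 1574 and 2015 in neg and, but for 0.822 in low 3, at 0 in low and high, at least 547.5-fold and 490.8-fold lower (adjusted p 0.0394 and 0.0335 in limma). These calls were lost in 11 and 7 of 22 alternatives, among them each fit without a neg library, with adjusted p up to 0.103 and 0.0985.

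Among 16 coactivator and turnover genes, Dtx4 and Kat2b rose. Dtx4, a Deltex family ubiquitin ligase, was listed at 0 in every neg library, against 412.5 ± 409.4 for low and 564.0 ± 369.2 for high (SD over 3 libraries each), at least 143.2-fold and 195.8-fold higher (adjusted p 0.0389 and 0.0258 in limma). The low bound was 62.2-fold without low 1, the highest low library. Dtx4 averaged most in sub, at 729.4 ± 995.8 (SD, n = 3), where it did not pass against neg (adjusted p 0.138). The low call was lost in 12 of 22 alternatives, the replicate block and each fit without a library outside sub among them (adjusted p up to 0.146). The high call was lost in 4, among them each fit without a high library (up to 0.114). Kat2b, a histone acetyltransferase, rose from 447.2 ± 288.4 in neg to 2976 ± 575.8 in low, by 2.90 ± 0.66 on the log2 scale (adjusted p 0.0134, lost without low 3 at 0.0631, without the variance trend at 0.148 and in the 2-gate fit at 0.0872). High against neg for Kat2b was 2.28 ± 0.66 (adjusted p 0.0534) and did not pass.

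None of the 17 tested corepressors, the proteins that RBPJ and HES factors recruit to silence genes, passed in any comparison. The same held for the 4 tested relatives of Hes1. Hes6 was listed at 0 in every neg and sub library, at 446.5 in high 1 and at 115.0, 333.9 and 520.3 in low 1, 2 and 3, without passing (adjusted p 0.171 for low against sub and 0.074 for low against neg in limma). Hes2, Hes3, Hes5 and Helt were at 0 in all 12 libraries.

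**Figure D5:**
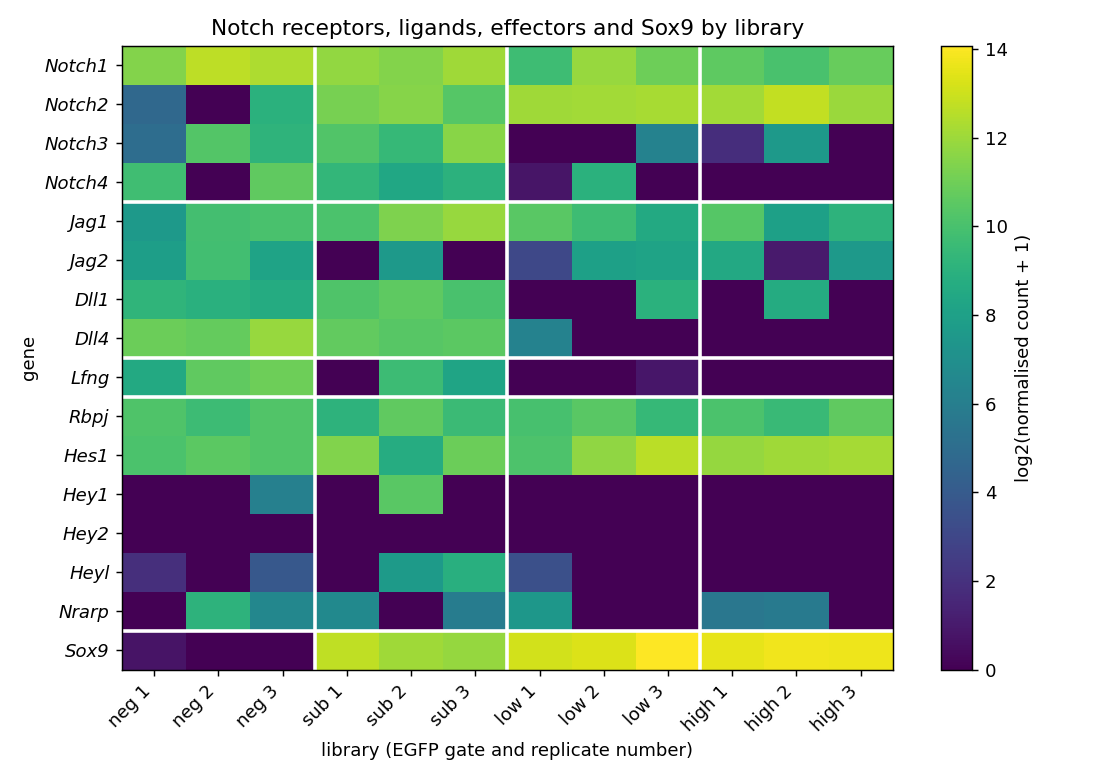
Heat map of log2(normalised count + 1) (colour) for Notch receptors, ligands, the modifier Lfng, the 6 effectors and Sox9 (rows) in each library (columns, grouped by gate). Notch2 and Sox9 are low or at 0 in neg and high in the other gates, Dll4 is at 0 in all low and high libraries but low 1, Lfng is near 0 in both gates, and Rbpj is detected in all 12 libraries.

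The genes most like each member were sought among 8587 genes with a mean of at least 100, by the root mean square difference of log2(normalised count + 1) values centred on each gene's own mean over the 12 libraries. For Hes1 they were Ptprk, a receptor tyrosine phosphatase, at 0.46, Slc6a6, the taurine transporter, at 0.56, and Xrn1, an RNA exonuclease, at 0.58, where Hes1 itself varied by 1.09 about its mean. Ptprk averaged 3832 in high, 3403 in low, 1573 in sub and 1672 in neg. For Rbpj they were Tnks2 (0.31), Mcl1 (0.38) and Vcp (0.39), with 0.48 for Rbpj itself. The sparse members had larger distances to their closest genes, but also varied more about their own means. These distances were 0.80 for Hey1 (Ptgis), 1.65 for Heyl (Stum) and 1.70 for Nrarp (Pde12). The members themselves varied by 3.22, 3.06 and 3.42, so the distances do not rank how close the matches were. These are descriptions over 12 libraries that share gates, and no test was made.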

How the data were processed

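The 12 libraries were made from DNase-treated total RNA (30 min) with a stranded total-RNA kit, per the labels' protocols. Per gene and library the authors deposited a normalised count, a signal on no absolute scale; Salmon, DESeq2 1.26.0 and the build mm10 are named in the submitters' processing notes, without role or order. Which annotation was used, and whether counting was stranded, is not given in the sources used here. All values (100%) lay within 1e-06 reads of a whole multiple of the column's smallest value above 0, 0.691 to 1.22, which recovered 8775387 to 15535588 reads per library. Gates and replicate numbers came from the titles and columns were matched through the descriptions. The members and gene lists were chosen with earlier results of these data known. Adjusted p values in the text are limma's unless another tool is named.

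Genes with a mean of at least 10 (16128 of 54227) were transformed to log2(normalised count + 1) and fitted with limma 3.58.1 in R 4.3.3 (lmFit, eBayes with a variance trend, gate as the only term, all 12 libraries). The 6 pairwise contrasts and an F test were two-sided with Benjamini-Hochberg adjustment over all tested genes at 0.05. Log2 differences understate changes of low genes. Alternatives included edgeR 4.0.16 and DESeq2 1.42.0 on the recovered reads, on all 12 libraries. The fit was tested on simulated data, but the outcome is not given here and no result rests on it. Named genes were the 6 members, pathway genes past the threshold (at most 4 per list and contrast), Notch1, Notch2, Notch3, Jag1 and Sox9, and the 3 genes most like each member (predicted genes and pseudogenes left out). Others named (Hes6, Notch4, the pseudogenes and overlapping genes, genes at 0) were chosen after their values were seen. Gene positions are from GENCODE M21 (GRCm38, equal to mm10), matched by symbol. For lower bounds of folds, a gate whose libraries each had 3 reads or fewer was set to the mean value of 3 reads per library. These fold bounds cover counting error in that gate only, and not the spread between libraries.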

Additional observations from a re-analysis of the deposited data

How the results depend on the processing

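Of 742 member results under an alternative (the F test and 6 contrasts of each tested member), 712 kept their direction and their side of the threshold, 1 gained a call and 29 changed sign without a call. The gain was Hes1 in high against neg in the fit of only those gates (1.73, adjusted p 0.034). Sign changes outside left-out libraries were Hes1 in sub against neg with equal totals (-0.0199), Nrarp in low against sub in edgeR (0.28) and DESeq2 (0.15), Nrarp in high against low in edgeR (-0.88) and DESeq2 (-0.82), Rbpj in low against neg in edgeR (0.035) and Rbpj in high against neg with equal totals (-0.0038).

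Leaving out each library in turn gave these ranges of the log2 difference. For Hes1 it was -0.49 to 0.87 in sub against neg, -0.15 to 1.08 in high against low and 1.62 to 1.86 in high against neg (adjusted p 0.0899 to 0.396), 0.87 to 2.22 in high against sub, 0.34 to 1.84 in low against sub and 0.65 to 1.89 in low against neg. For Heyl it was -1.92 to 0.18 in low against neg. For Nrarp it was -3.62 to 1.07 in sub against neg, -5.32 to -0.76 in low against neg, -4.03 to 0.52 in high against neg and -2.504 to 1.48 in high against sub. For Rbpj it was -0.67 to 0.093 in sub against neg, -0.19 to 0.58 in low against sub, -0.13 to 0.41 in high against low, -0.36 to 0.18 in low against neg, -0.23 to 0.32 in high against neg and -0.044 to 0.72 in high against sub.

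Counts of all genes called moved most with the tool. DESeq2 called 1698 genes in sub against neg, 1593 in low against sub, 646 in high against low, 2352 in low against neg, 2257 in high against neg and 1485 in high against sub, where limma called 192, 120, 0, 757, 757 and 159. A fit of only the 2 gates called 0, 0, 203, 341 and 8 (sub against neg, low against sub, low against neg, high against neg, high against sub). High against low gave 1 without a filter, 1 with the replicate block, 22 without the variance trend and 34 in edgeR, and low against sub gave 195 without the variance trend. Without single libraries the ranges were 10 (without sub 2) to 126 for low against sub, 46 (without sub 2) to 176 for high against sub, 445 (without low 3) to 763 for low against neg, 424 (without high 3) to 773 for high against neg, 135 (without sub 2) to 239 for sub against neg and 0 to 4 for high against low. The cause was not tested.

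With the replicate block (paired by replicate number), Hes1 had an adjusted F test p of 0.332 and no member was called. Same-numbered libraries share a code in the labels, whose meaning is not stated. Their deviations correlated by at most 0.0266 over 18 pairs, under the 0.1 required in every pair, so the numbers were not taken as pairs. As a hint in the other direction, 10 of 12 libraries correlated best with their own number. The mean correlation was 0.0088 for same-numbered pairs and -0.0044 for pairs of different number. The check therefore does not show that same-numbered libraries were unrelated. Hey2 was bounded at 0.0199 RPM by counting error alone, Hey1 had no value without sub 2, where its mean fell under the filter, and a filter at 100 dropped Heyl and Nrarp.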

Other observations

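Hes7, a relative of Hes1 outside the 6 members that is known from somite segmentation, was above 0 in all 12 libraries. Its normalised counts were 481.6, 172.4 and 367.0 in neg, 145.2, 1637 and 171.6 in sub, 195.9, 45.9 and 353.4 in low and 105.6, 43.5 and 44.1 in high. The sub 2 library stood at the extreme of several of these genes at once: it held the highest Hes7, Hey1 (1440.3) and Rbpj (1594) values and the lowest Hes1 value (412.2) of the 12. Hes7 passed in no comparison (adjusted p of 0.539 for high against neg and 0.668 for high against sub in limma). These genes were singled out after their values were seen.

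Values at 0 beside high values in the same gate were common in this table and not particular to Hey1, Heyl or Nrarp. Of 16128 tested genes, 11848 (73.5%) were at 0 in a library and at 100 or more in another library of the same gate. Hey1 showed this in sub (0 and 1440.3), Heyl in sub (0 and 469.8) and Nrarp in neg (0 and 550.3) and low (0 and 175.9), while Hes1 and Rbpj did not.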
